A study of Mus musculus with 24 samples.

Results

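The mesenteric arteries of long-term mice were sequenced in 12 libraries, out of 24 in the series, and the animal numbers in the titles divide these 12 mice into 2 sets. The first set holds mice 8088 to 8152, of which 2 are ieCre (8088 and 8089) and 4 are ieET-1 (8134, 8135, 8136 and 8152). The second set holds mice 9485 to 9491, of which 4 are ieCre (9485, 9486, 9487 and 9491) and 2 are ieET-1 (9489 and 9490). Each mouse was assigned by its number alone, with no measured value, and the labels do not say whether a number marks a litter, a delivery or a date. The question is which cell types and gene programs differ between sets of mice that had the same tissue taken at the same time after the same treatment.

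All 12 mice were male and 10 to 12 weeks old when they received subcutaneous tamoxifen at 1 mg/kg/day over a course of 5 days, and the tissue was taken 3 months later. The ieCre controls carry a tamoxifen-inducible Cre recombinase driven by the Tie2 promoter, described in the labels as specific to endothelium. In ieET-1 mice human endothelin-1, a vasoconstrictor peptide, is overexpressed in addition, so every mouse here carries the Cre and received tamoxifen. Vessels were freed of perivascular fat and veins in RNAlater before extraction, ribosomal RNA was depleted, and stranded total RNA libraries were sequenced. Each library is 1 mouse, and the p-values below measure the spread between mice within a set and genotype.

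Mesenteric arteries are small resistance vessels. Their wall has an endothelial lining on a basement membrane, layers of smooth muscle, and an outer adventitia with fibroblasts, nerve bundles with Schwann cells, and resident macrophages that take up debris and present antigen on MHC class II molecules. They run through mesenteric fat beside lymphatics and close to the pancreas, so a dissected artery can carry traces of those tissues. Immediate early genes, which encode transcription factors switched on within minutes of a stimulus, respond to many forms of stress and handling.

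The deposited signal is a read number divided by a size of its library, on a scale near CPM, and recovered totals ran from 9635250 to 16181605 reads. Smooth muscle markers stood high in every library: Acta2, smooth muscle actin, ran from 2635 to 6600. Khdrbs3, the splicing regulator named in the series title, ran from 46.8 to 62.5 in the ieCre mice and from 79.9 to 92.4 in the ieET-1 mice, and was not called between the sets (log2 difference -0.02, limma, adjusted p = 0.884). Gm42418, whose locus shares sequence with ribosomal RNA, took over 10% of reads in mice 8135 (21.3%), 8136 (11.9%) and 9491 (11.5%). Mouse 9489 had reads on 24399 genes, against 18877 to 20744 in the other 11 libraries.

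The libraries also differed in how strongly they represented GC-rich genes. Genes were divided by GC share into 10 bins. The GC tilt, the median log2 deviation in the bin with the highest GC share minus that in the lowest, ran from 0.202 to 0.439 in 5 libraries of the first set and from -0.421 to -0.00158 in the second. Mouse 8134 of the first set, at -0.295, lay among the second set. Across all tested genes the median difference between the sets went from 0.21 in the bin of lowest GC share to -0.23 in the highest, and from 0.21 for the bin of shortest genes to -0.11 for the longest. Counts of calls are therefore also given after each library was corrected for GC share and transcript length, an alternative chosen after seeing the data. Which step made the tilt was not tested.

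**Figure D1:**
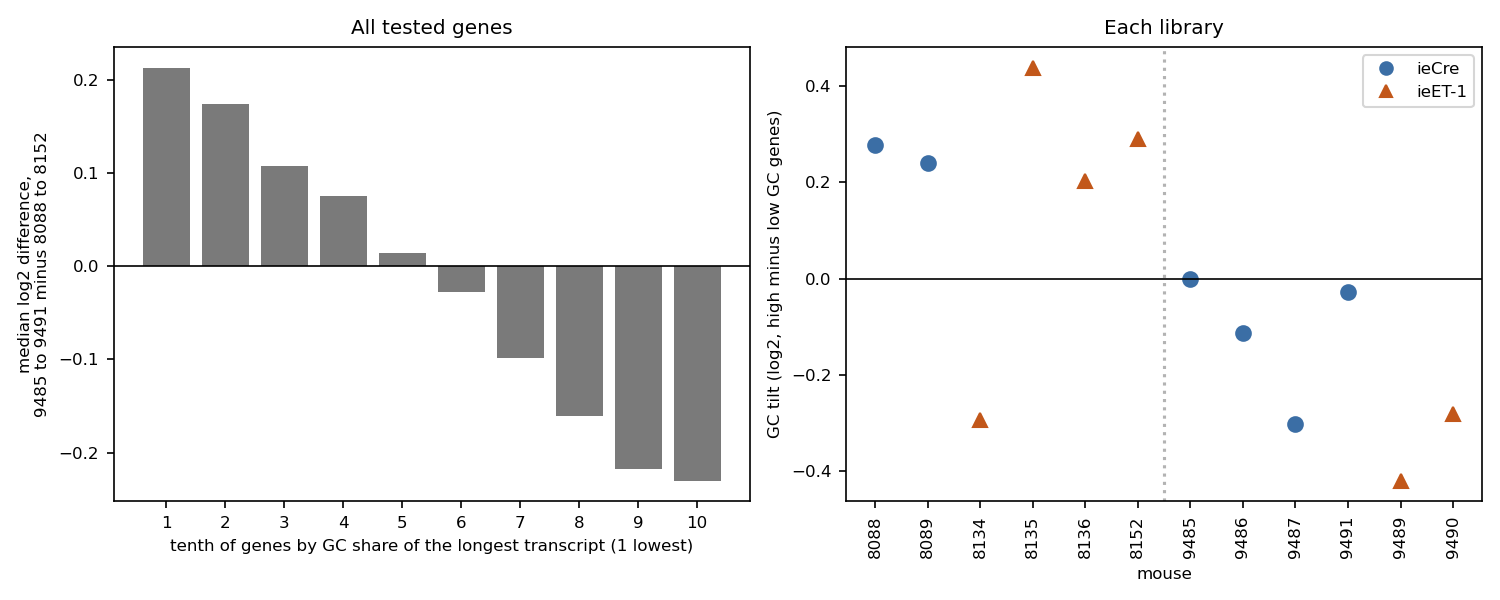
Left, median log2 difference between the sets (second minus first) in 10 bins of the tested genes by the GC share of the longest transcript, with bars from 0.21 to -0.23. Right, GC tilt of each library (log2), where circles are ieCre and triangles ieET-1 mice; 5 of the 6 libraries on the left of the dotted line lie above 0, and mouse 8134 lies with the second set.

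Of 14063 genes tested with genotype as a term, 2187 differed between the sets (limma, adjusted p under 0.05), which is 15.6%. Of these, 1024 (7.28%) were higher in the second set and 1163 (8.27%) were lower. Each list count below is to be set against these shares. A list whose share of calls lies near them gives no result as a list, and neither does a list with a single call. At an unadjusted p under 0.05 there were 4955 genes, where 703 are expected by chance. The count changed with the mice in the fit. It was 190 without 9489, 347 without 8088, 479 without 8089 and 1121 without 9486. It was 1245 without 8152, 1314 without 9487 and 4794 without 8134. It was 453 without the 3 libraries with over 10% of reads on Gm42418, and 10, all lower, when 9489 was left out as well. After the GC and length correction 444 genes were called (3.16%), of which 152 (1.08%) were higher and 292 (2.08%) lower, and 403 of them were among the 2187. The call was kept by 172 genes in all 12 fits with 1 library left out, 24 higher and 148 lower, and by 137 of these after the correction too. Of the 106 called genes named here, 92 lost their call without 9489, 78 without 8089, 69 without 8088 and 0 without 8134. Mice 8088, 8089, 9489 and 9490 each belong to a genotype with 2 mice in its set, where leaving 1 out costs more precision. Without 9490 the count was 2333. All 2187 calls kept their direction in every fit with 1 library left out. How much of the loss of calls comes from lost precision was not tested.

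Of 12 tested macrophage markers 7 were higher in the second set and 0 lower, with a median log2 difference of 0.85, against 0.01 over all tested genes. Lyz2, the lysozyme of macrophages and granulocytes, was 218 at lowest, 308 at the median and 427 at highest in the first set, and 391, 577 and 1051 in the second. Its log2 difference was 1.09 (SE 0.24, limma, adjusted p = 0.0166). The sets overlapped only at mice 8134 and 9485, and the highest values were those of 9487 (1051), 9489 (896) and 9486 (636).

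C1qc, a subunit of the complement starter C1q made by tissue macrophages, ran from 72.8 to 123 in the first set and from 134 to 268 in the second, without overlap, as for 2.33% of all tested genes (log2 difference 0.85, SE 0.19, limma, adjusted p = 0.018). C1qb, another C1q subunit, differed by 0.93 (SE 0.22, limma, adjusted p = 0.0206). Cd163, the haemoglobin scavenger receptor of resident macrophages, differed by less, 0.47 (SE 0.11, limma, adjusted p = 0.0188), with values of 31.8 to 42.4 against 42.2 to 59.9. Csf1r, on the same list, was not called (-0.03, limma, adjusted p = 0.879), and neither was Cd68 (0.55, limma, adjusted p = 0.187). After the GC and length correction 5 of the 12 markers were called and the median was 0.86. None were called without mouse 8089 or without the Gm42418-rich libraries, 1 without 9489 and 2 without 8088, while the median stayed between 0.73 and 0.99 over the fits with 1 library left out.

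Of the 12 named genes with the largest rise in the second set, Ccl8, a chemokine that draws monocytes, was the most changed: 2.91 at lowest, 7.82 at the median and 14 at highest in the first set, and 12.7, 31.1 and 96.2 in the second. The log2 difference was 2.28 (SE 0.47, limma, adjusted p = 0.013), the value of mouse 9485 (12.7) lay within the first set, and the 2 highest values were in 9487 and 9489. Ccr2, the receptor by which monocytes are recruited, ran from 27.8 to 56.4 in the first set and from 46.6 to 250.4 in the second (1.47, SE 0.39, limma, adjusted p = 0.0294). Tyrobp, the signalling adaptor of many myeloid receptors, ran from 12.8 to 23.7 against 25.2 to 95.8 without overlap (1.38, SE 0.31, limma, adjusted p = 0.0172). Ctss, the lysosomal protease that trims the MHC class II invariant chain, differed by 1.51 (limma, adjusted p = 0.0233).

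The other genes of the 12 were Fcgr4, an activating Fc receptor of myeloid cells, Tlr13, a sensor of bacterial ribosomal RNA, Ms4a6d and Ms4a6c of the myeloid MS4A family, Cd300c2, Wfdc17, Nxpe5 and Anxa8. Their log2 differences ran from 1.32 (Anxa8) to 1.76 (Fcgr4). Fcgr4, Nxpe5 and Cd300c2 stood close to the detection floor in the first set, with medians of 0.94, 1.34 and 1.88, where 3 reads give a value of 0.177 to 0.461. Fcgr4 met the filter, a value of 1 in 6 or more of 12 libraries, only with the second set, where it ran from 1.0 to 21.4. The rise was present in both genotypes for Ccl8 (2.09 in ieCre alone, 2.48 in ieET-1 alone) and for Ccr2 (1.27 and 1.67). The calls of these 12 genes were lost without mouse 9489, and those of all but Wfdc17 also without 8089. After the GC and length correction Ccl8 and Tyrobp stayed called (limma, adjusted p = 0.0436 and 0.0406), and the other 10 had limma adjusted p-values of 0.0514 (Wfdc17) to 0.0969 (Cd300c2).

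**Figure D2:**
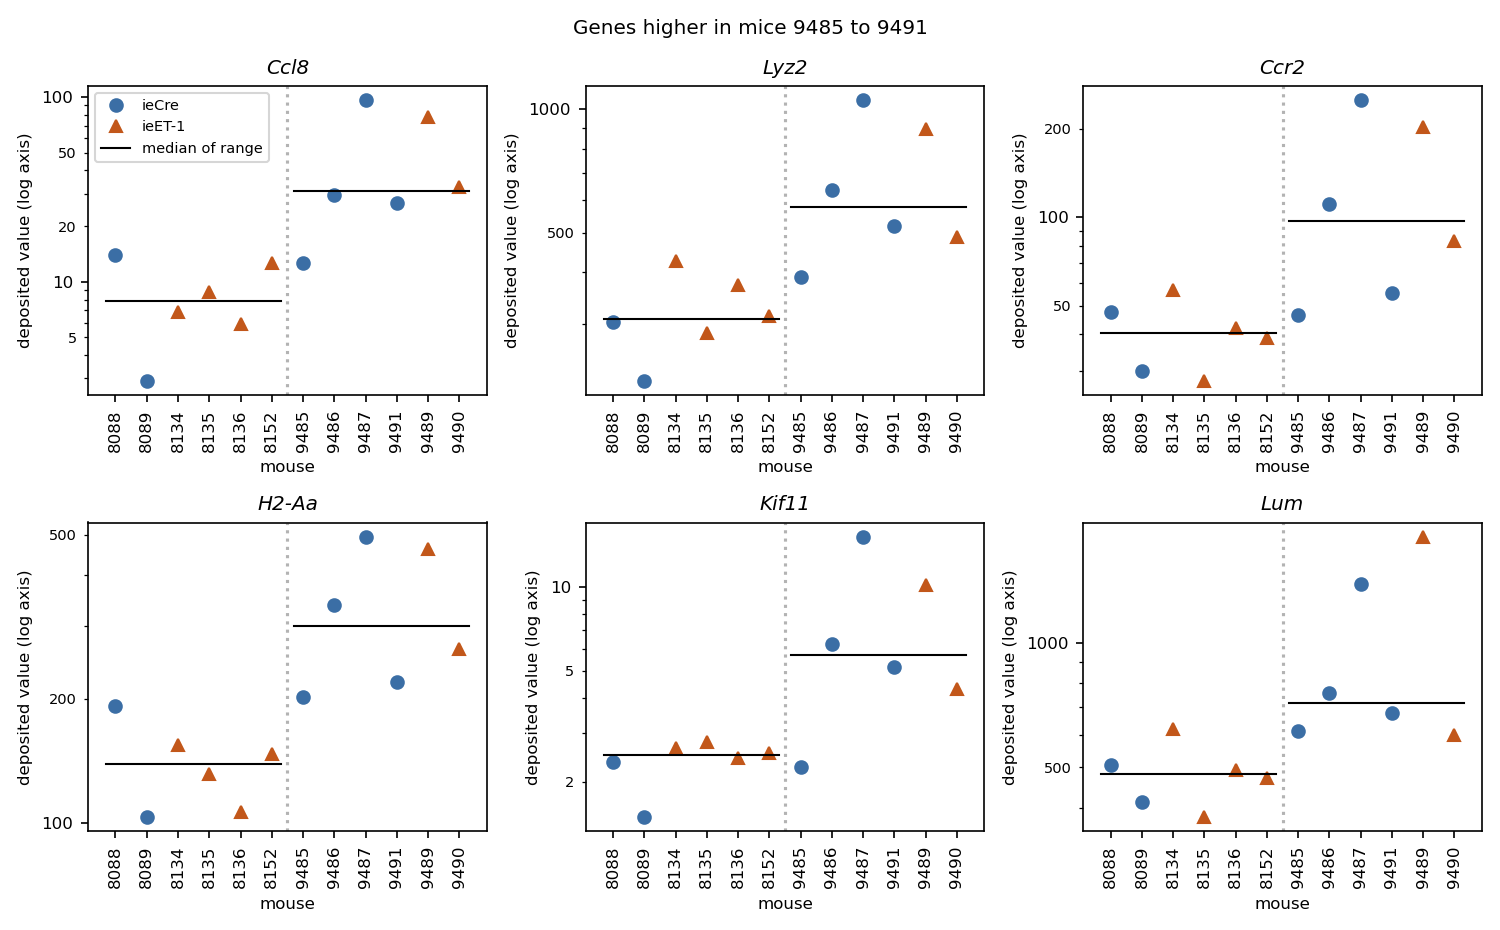
Deposited values (log axis) of 6 genes in each mouse, with circles for ieCre, triangles for ieET-1 and a line at the median of each set. Mice 9487 and 9489 have the 2 highest values in every panel, and mouse 9485 lies at or near the level of the first set.

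Genes of antigen presentation were higher as well, 5 of 7 tested with 0 lower and a median difference of 1.00. H2-Aa, which encodes the alpha chain of a class II molecule, was 103 at lowest, 139 at the median and 192 at highest in the first set and 202, 300.2 and 495 in the second. The sets did not overlap, and the difference was 1.22 (SE 0.25, limma, adjusted p = 0.013). Its partner H2-Ab1, the beta chain, ran from 87.9 to 151 against 159 to 359.7, also without overlap (1.02, SE 0.21, limma, adjusted p = 0.0142). H2-Eb1, a further class II beta chain, differed by 1.00 (SE 0.23, limma, adjusted p = 0.0186) and overlapped only through mice 8088 (128) and 9485 (116).

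The remaining called members were Flt3, a receptor of dendritic cell precursors (1.07, limma, adjusted p = 0.0229), and Cd74, the invariant chain (0.69, limma, adjusted p = 0.0435). Ciita, the coactivator that turns on class II genes, was not called (0.38, limma, adjusted p = 0.14). After the GC and length correction 5 members were called, with Ciita in place of Cd74. The count was 0 without mouse 8089, without 9489 or without the Gm42418-rich libraries, and the median ran from 0.80 to 1.16 over the fits with 1 library left out.

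The promoters of H2-Aa and H2-Eb1 are shown because both genes moved together. Class II promoters are known to carry an X2 box that resembles the cAMP response element TGACGTCA, and a Y box, which is a reversed CCAAT box. Capitals mark every match to CCAAT or ATTGG and to TGACGTCA in 250 bases before and 50 after the start. H2-Aa (RefSeq, GRCm38.p6, chr17:34287774-34288073, minus strand) holds 1 CCAAT match and 1 full TGACGTCA match, and H2-Eb1 (chr17:34305617-34305916, plus strand) holds 2 CCAAT matches and 0 of the other.
H2-Aa: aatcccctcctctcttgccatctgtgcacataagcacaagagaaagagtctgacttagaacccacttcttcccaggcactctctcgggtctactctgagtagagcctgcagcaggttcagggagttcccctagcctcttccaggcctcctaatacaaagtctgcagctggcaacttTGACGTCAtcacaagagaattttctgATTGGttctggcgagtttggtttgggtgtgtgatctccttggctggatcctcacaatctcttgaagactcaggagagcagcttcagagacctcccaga
H2-Eb1: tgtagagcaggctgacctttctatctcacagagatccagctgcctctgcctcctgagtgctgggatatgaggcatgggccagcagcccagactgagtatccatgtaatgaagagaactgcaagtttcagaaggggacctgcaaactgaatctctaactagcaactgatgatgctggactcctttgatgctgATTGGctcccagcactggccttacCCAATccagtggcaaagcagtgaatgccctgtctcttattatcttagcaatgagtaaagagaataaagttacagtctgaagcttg
Of all 32851 promoters of this length in the table, 37.4% hold a CCAAT match on either strand and 1.79% hold TGACGTCA. A match is a description of the letters only.

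Among 9 tested mitosis genes 1 was higher, Kif11, the spindle motor, where 7.28% of all tested genes were higher, so the count gives no result for the list. The list median was 1.00. Kif11 ran from 1.49 to 2.77 in the first set and from 2.25 to 15.2 in the second (1.18, SE 0.33, limma, adjusted p = 0.0329), and its call was lost without 8088, 8089, 9486, 8136, 8152 or 9489 and after the correction (limma, adjusted p = 0.0759). Mki67, the marker of cycling cells, was 65.7 in mouse 9487, 45.5 in 9489 and 31.3 in 9486, while the other 9 libraries lay between 7.51 and 19.3 (1.04, limma, adjusted p = 0.0735). Of 40 tested replication-dependent histone genes, which are transcribed in S phase, 5 were higher with a median of 0.49: Hist1h4i, Hist1h3b, Hist1h2bc, Hist1h2bf and Hist1h2bg. Hist1h3b was 0.544 to 1.58 in the first set and 1.25 to 6.89 in the second (1.07, limma, adjusted p = 0.0259). Hist1h2bf was 0.287 to 0.922 and 1.0 to 3.6. Genes were tested if they reached a value of 1 in 6 or more of 12 libraries. Hist1h2bf met this through the second set alone, and Hist1h3b, at a median of 0.86 in the first set, only with the second. The mitosis genes Ccnb1, Cdk1 and Ccnb2 also met it only with the second set. The rises of these genes, and the mitosis median, are therefore not independent of the filter. None of the histone calls stood after the correction or without 8088, 8089 or 9489, and the count was 2 without 9486, 3 without 8136 or 8152, 12 without 9485, 13 without 8134 and 17 without 9490.

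Mice 9487 and 9489 led the related lists too. The mean log2(value + 1) of the macrophage list was 6.92 in 9487 and 6.64 in 9489, against 5.63 to 6.202 in the other 4 mice of the second set and 5.17 to 5.78 in the first. The mitosis list stood at 3.985 and 3.50 in those 2 mice and at 1.67 to 2.88 in the other 10. Ccl7, another monocyte chemokine, was 38.5 in 9487 and 20 in 9489 and at most 6.31 elsewhere, with no call for the set difference (limma, adjusted p = 0.142). The eosinophil chemokine Ccl11 was not called either (0.66, limma, adjusted p = 0.106). The neutrophil genes S100a8 and S100a9 were too low to be tested, but S100a9 reached 16.6 in 9489, 15.7 in 9487, 8.54 in 9490 and 6.54 in 9486, with at most 0.79 in the other 8 libraries.

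Lymphocyte genes differed less. None of the 7 tested T cell genes was called, with a median of 0.25; Il7r, the interleukin-7 receptor, differed by 0.46 (limma, adjusted p = 0.153) and Cd4 by 0.38 (limma, adjusted p = 0.284). None of 4 B cell or 6 mast cell genes was called, with medians of -0.03 and 0.36. Of 14 interferon response genes 1 was higher, Bst2, which tethers budding virus (0.41, limma, adjusted p = 0.0335), and the list score was highest in 9487. The count lies near the 7.28% of all tested genes that were higher and gives no result for the list. In whole arteries, more cells of a type and more RNA per cell cannot be told apart, and this holds for every cell type named here.

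**Figure D3:**
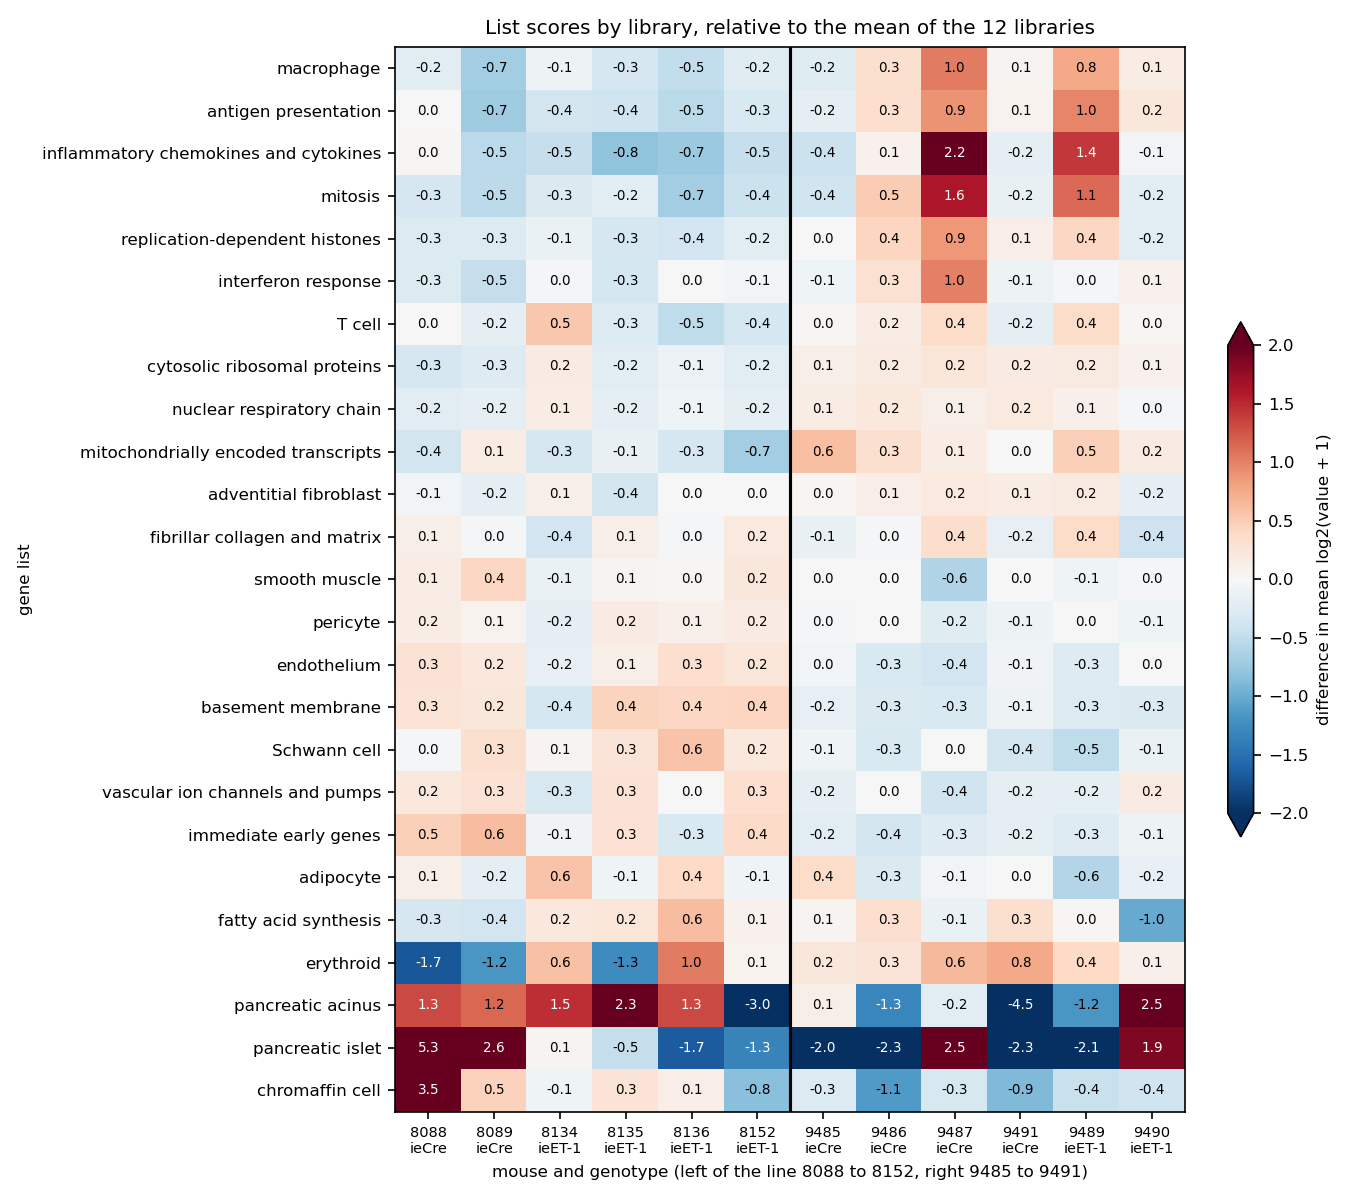
Mean log2(value + 1) of the tested members of 25 gene lists in each library, relative to the mean of the 12 libraries (red higher, blue lower). The macrophage, antigen presentation, chemokine and mitosis rows are highest in mice 9487 and 9489, and the pancreatic rows vary within both sets.

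Gene lists of the vessel wall did not all move one way. Of 16 tested endothelial genes 4 were lower and 0 higher, with a median of -0.46. Kdr, the VEGF receptor 2, was 55.4 at lowest, 63.7 at the median and 68.6 at highest in the first set, and 35.8, 40.6 and 55.1 in the second, so that the sets stood just apart, as for 3.06% of all tested genes (-0.52, SE 0.10, limma, adjusted p = 0.0111). Nos3, the endothelial nitric oxide synthase, ran from 94.1 to 233 against 88.6 to 141 (-0.80, SE 0.21, limma, adjusted p = 0.0274), and its lowest value in the first set was that of mouse 8134. The orphan receptor Tie1 differed by -0.51 (limma, adjusted p = 0.0209) and the guidance receptor Robo4 by -0.61 (limma, adjusted p = 0.0248). Pecam1, a general endothelial adhesion molecule, was not called (0.02, limma, adjusted p = 0.925).

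The number of endothelial calls changed with the correction and with the mouse left out. After the GC and length correction 0 of the 16 were called and the median was -0.23, and Kdr then differed by -0.38 (limma, adjusted p = 0.054). There were 0 calls without 8088 or 9489, 1 without 8089, 8 without 9490 and 10 without 8134. Lymphatic endothelium showed 2 lower of 6, Flt4, the VEGF receptor 3 (-0.66, limma, adjusted p = 0.0208), and Reln (-0.57, limma, adjusted p = 0.0285). Its median was -0.14, with -0.34 in ieCre alone and 0.06 in ieET-1 alone. Prox1 (-0.16) and Lyve1 (-0.12) were not called, and neither were Pdpn (0.36) and Mmrn1 (0.27), which were positive. The lymphatic list had 0 calls after the correction or without 8088, 8089 or 9489, and 1 without 9486. The pericyte list had 2 lower of 8, the PDGF receptor Pdgfrb (-0.61) and the proteoglycan Cspg4 (-0.66), both limma, with adjusted p = 0.0259 and 0.0423. Its median was -0.14, and -0.04 after the correction. Differences were negative for 5 members and positive for 3, Kcnj8 (0.42), Rgs5 (0.38) and Higd1b (0.27), none of them called. The pericyte list had 0 calls after the correction or without 8088, 8089 or 9489. It had 1 call without 9485, 9486, 9487, 8135, 8136, 8152 or 9490 and 3 without 8134.

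Basement membrane genes gave 5 lower of 13, and all 13 had a negative difference, with a median of -0.53. Lamb2, a laminin beta chain of vessel basement membranes, was 255 at lowest, 459.6 at the median and 595 at highest in the first set and 198, 248 and 293 in the second (-0.83, SE 0.19, limma, adjusted p = 0.0196). The only mouse of the first set within the range of the second was 8134. The laminin gamma chain Lamc1 differed by -0.56 (limma, adjusted p = 0.0168), the linker Nid1 by -0.46 (limma, adjusted p = 0.0214), Col15a1 by -0.69 (limma, adjusted p = 0.0278) and Nid2 by -0.42 (limma, adjusted p = 0.0347). This list had the highest median GC share of the vessel wall lists, 56.4%, and after the correction its median was -0.20 with 0 calls. There were 0 calls without 8089 or 9489, 1 without 8088, 3 without 9490 and 12 without 8134.

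Of 22 genes of interstitial matrix 3 were lower, the collagen VI chains Col6a1 and Col6a2 and the protease inhibitor Timp2. Over all tested genes 8.27% were lower. The list median was -0.17, and 0.007 after the correction, with 13 differences negative and 9 positive. The largest was that of Timp1, not called (2.05, limma, adjusted p = 0.0788), which was 384.1 in 9487 and 221 in 9489. Col6a1 ran from 389 to 531 against 254 to 372, without overlap (-0.62, SE 0.12, limma, adjusted p = 0.01), and it kept its call whichever library was left out but not after the correction (-0.33, limma, adjusted p = 0.116). The matrix list had 1 call without 8088, 8089, 8152 or 9489 and 8 without 8134. Adventitial fibroblast genes went the other way in part: 3 of 13 were higher, with a median of 0.08. Differences were positive for 7 and negative for 6. Gsn ran from 6553 to 9312 against 3906 to 5924, lower without overlap, but was not called (-0.64, limma, adjusted p = 0.0572). Lum, the collagen-binding proteoglycan lumican, ran from 379 to 620.3 in the first set and from 597 to 1801 in the second (0.96, SE 0.28, limma, adjusted p = 0.0369), and its 2 highest values were again those of 9489 and 9487. Ly6a, a surface marker of fibroblasts and endothelium, differed by 0.61 (limma, adjusted p = 0.0202), and the microfibril protein Mfap5 by 0.70 (limma, adjusted p = 0.0329). None of the 3 was called after the correction, and the list had 0 calls without 8089 or 9489, 1 without 8088, 9486, 9487 or 8152, 5 without 9490 and 8 without 8134.

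Schwann cell genes were lower in 4 of 9, with a median of -0.50. Prx, periaxin of the myelin sheath, ran from 9.37 to 13.8 against 7.18 to 8.49, without overlap (-0.51, SE 0.10, limma, adjusted p = 0.0128). Sox10, the lineage factor of neural crest glia, ran from 6.52 to 18.4 against 4.85 to 11.8 (-0.88, SE 0.24, limma, adjusted p = 0.0295). Mbp, a myelin protein, was lower as well (-0.50, limma, adjusted p = 0.0335). None of the 4 was called after the correction or without 8089 or 9489, and 2 calls were left without 8088, 9486, 9491, 8135, 8136 or 8152.

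Smooth muscle genes were lower in 3 of 18, where 8.27% of all tested genes were, with a median of -0.27. They were Des, the intermediate filament desmin (-0.73, SE 0.17, limma, adjusted p = 0.0208), Itga8, integrin alpha 8 (-0.56, limma, adjusted p = 0.0306), and Ppp1r12b, a regulatory subunit of myosin phosphatase (-0.61, limma, adjusted p = 0.0356). Acta2 itself did not pass (-0.53, limma, adjusted p = 0.0983). Differences were negative for 13 members and positive for 5, among them Myl9 (0.23), Cnn1 (0.17) and Tagln (0.15), none of them called. The score of a list is its mean log2(value + 1). Mouse 9487 had the lowest smooth muscle score of the 12, 8.71 against 9.17 to 9.72 in the other 11, and it had the highest macrophage score. None of the 3 calls stood after the correction or without 8088, 8089 or 9489, while 1 was left without 9486, 8136 or 8152 and 6 were made without 8134.

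Among 20 ion channels and pumps 2 were lower, where 8.27% of all tested genes were. The count gives no result for the list, whose median was -0.28. Itpr1, the IP3 receptor that releases calcium from the reticulum, was 506 at lowest, 645 at the median and 701 at highest in the first set and 283, 358 and 446 in the second. The sets did not overlap, and the difference of -0.75 (SE 0.13, limma, adjusted p = 0.00678) was called in all 12 fits with 1 library left out and after the correction (-0.56, limma, adjusted p = 0.0372). The potassium channel Kcna5 differed by -0.59 (limma, adjusted p = 0.0309). The list had 1 call without 8088, 8089, 9486, 9487, 8152 or 9489 and 8 without 8134. Of 6 genes of the endothelin system 1 was lower, Ece1, so the count gives no result for the list, whose median was -0.055. Ece1, which cleaves the precursor to active endothelin, ran from 97.6 to 198 against 71.7 to 105 (-0.98, SE 0.18, limma, adjusted p = 0.0104). The Ece1 call stood after the correction (-0.70, limma, adjusted p = 0.0205) but not without 9489. The natriuretic peptide receptor Npr2 was the single call of 9 in nitric oxide and natriuretic signalling (-0.47, limma, adjusted p = 0.0426).

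The largest losses in the second set were a mixed group, of which several did not depend on any one mouse. Mfge8, milk fat globule EGF factor 8, a secreted bridge between dying cells and phagocytes that is also laid down in arteries, was 410.3 at lowest, 553 at the median and 806 at highest in the first set and 171, 238 and 328 in the second. The sets did not overlap, and the difference was -1.24 (SE 0.19, limma, adjusted p = 0.00354), with -1.28 in ieCre alone and -1.21 in ieET-1 alone. Unc45a, a myosin chaperone, ran from 46.9 to 94.5 against 21.5 to 38.5 (-1.14, SE 0.17, limma, adjusted p = 0.00368). Ckb, brain-type creatine kinase, ran from 257 to 376 against 109 to 185 (-1.08, SE 0.14, limma, adjusted p = 0.00166), and the adaptor Afap1l2 from 67.7 to 114 against 37.9 to 54.5 (-1.09, SE 0.14, limma, adjusted p = 0.00166). These 4 genes were called in all 12 fits with 1 library left out and after the correction, where their differences were -1.11, -0.85, -0.81 and -0.92.

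The other genes of the 12 largest losses were the sodium-calcium-potassium exchanger Slc24a2, the Wnt antagonist Sfrp5, the calcium pump Atp2a3, the potassium channel Kcna6, the ubiquitin ligase subunit Asb2, the matricellular protein Ccn1, the nuclear receptor Nr4a1 and Chgb. Slc24a2, Sfrp5 and Kcna6 did not overlap between the sets (-1.26, -1.21 and -1.09), and each lost its call only without 9489. Chgb, a granule protein of endocrine and nerve cells, had the largest difference (-1.81, SE 0.57, limma, adjusted p = 0.0493), which rested on 1 mouse: it was 75.6 in 8088 and at most 7.99 in the other 11. Without 8088 the difference of Chgb was -0.94, and its call was kept only without 8134.

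**Figure D4:**
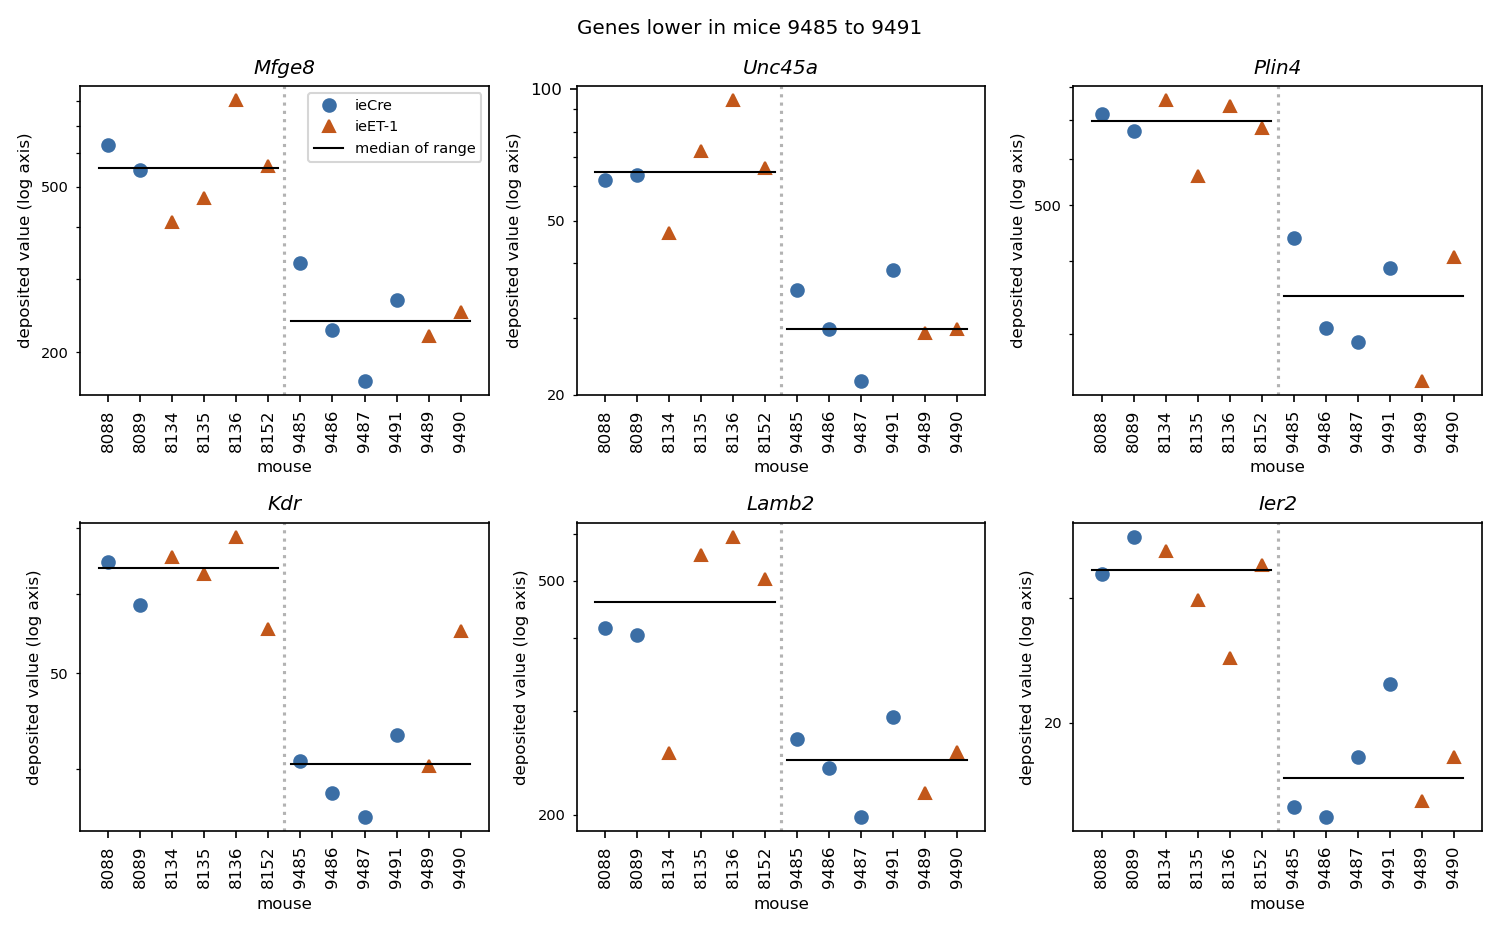
Deposited values (log axis) of 6 genes in each mouse, drawn as in the plot of the genes that were higher. Mfge8, Unc45a, Plin4, Kdr and Ier2 do not overlap between the sets, and in Lamb2 mouse 8134 lies with the second set.

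Immediate early genes were lower in 7 of 18 tested with 0 higher and a median of -0.56. Ier2, a fast-responding nuclear protein, was 24.7 at lowest, 32.9 at the median and 36.7 at highest in the first set, and 14.7, 16.7 and 22.7 in the second. The sets did not overlap, the difference was -0.89 (SE 0.12, limma, adjusted p = 0.00239), and the call stood in all 12 fits with 1 library left out and after the correction (-0.79, limma, adjusted p = 0.0193). The AP-1 subunits Jun (-0.66, SE 0.15) and Junb (-0.79, SE 0.20) were lower with limma adjusted p = 0.018 and 0.0241. Nr4a1 ran from 19.7 to 52.2 against 10.7 to 23 (-1.13, SE 0.26, limma, adjusted p = 0.0184), with -1.60 in ieCre alone and -0.66 in ieET-1 alone. Fos, the best known of the list, ran from 6.24 to 80.4 against 10.85 to 28.9 and was not called (limma, adjusted p = 0.104). Ier2 was the 1 member called after the correction, and 1 member was called without 8088, 8089 or 9489, while 8 were called without the Gm42418-rich libraries.

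The promoters of Nr4a1 and Junb are shown because both genes were lower in the second set. Within that set mouse 9487 had the lowest Nr4a1 (10.7) and the highest Junb (69.3). After the correction neither was called (limma, adjusted p = 0.0564 and 0.121). Both are known as targets of CREB, which binds the cAMP response element and its shorter form TGACG. Capitals mark TGACG or CGTCA on either strand, which 20.8% of the 32851 promoters hold. Nr4a1 (chr15:101266596-101266895, plus strand, GRCm38.p6) holds 4 matches and Junb (chr8:84978699-84978998, minus strand) holds 1.
Nr4a1: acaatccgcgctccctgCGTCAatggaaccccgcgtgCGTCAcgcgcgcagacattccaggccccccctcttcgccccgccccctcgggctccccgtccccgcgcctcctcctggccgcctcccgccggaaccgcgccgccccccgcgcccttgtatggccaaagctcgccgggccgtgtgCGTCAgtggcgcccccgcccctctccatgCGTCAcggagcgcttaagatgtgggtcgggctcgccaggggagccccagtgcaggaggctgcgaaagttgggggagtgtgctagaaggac
Junb: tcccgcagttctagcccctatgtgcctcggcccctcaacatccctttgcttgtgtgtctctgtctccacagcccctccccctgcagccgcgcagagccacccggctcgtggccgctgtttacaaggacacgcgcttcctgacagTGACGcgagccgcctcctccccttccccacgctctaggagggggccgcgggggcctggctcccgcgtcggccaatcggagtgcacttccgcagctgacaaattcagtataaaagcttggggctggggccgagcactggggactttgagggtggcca

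The heat shock list split. The inducible chaperones Hspa1a (-0.97, SE 0.18, limma, adjusted p = 0.0106) and Hspa1b (-0.86, SE 0.20, limma, adjusted p = 0.0208) were lower. The mitochondrial chaperonins Hspe1 (0.52, limma, adjusted p = 0.0119) and Hspd1 (0.35, limma, adjusted p = 0.0464) and the cytosolic Hsp90aa1 (0.48, limma, adjusted p = 0.0162) were higher. Hspa1a and Hspa1b are near-identical copies, so reads may be shared between them. Only Hspa1a was called after the correction (-0.72, limma, adjusted p = 0.0261), and none of the 5 without 9489. In the unfolded protein response 2 of 12 were higher, the reticulum chaperones Hsp90b1 (0.43, limma, adjusted p = 0.0205) and Hspa5 (0.64, limma, adjusted p = 0.0331), with 0 calls after the correction or without 8089 or 9489. Klf9, induced by glucocorticoids, was the single call of 9 in its list (-0.39, limma, adjusted p = 0.0334), and none of 5 morning-arm and 9 evening-arm circadian clock genes was called.

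Of 13 adipocyte genes 3 were lower, where 8.27% of all tested genes were, with a median of -0.21. The median was 0.05 in ieCre alone, -0.52 in ieET-1 alone and -0.06 without 9489. Differences were negative for 8 members and positive for 5. Plin4, a coat protein of lipid droplets, was 561 at lowest, 698 at the median and 759 at highest in the first set and 249, 349 and 439 in the second, without overlap (-1.04, SE 0.15, limma, adjusted p = 0.0031). Lipe, the hormone-sensitive lipase, ran from 107 to 151 against 48.4 to 102 (-0.96, SE 0.16, limma, adjusted p = 0.00508). Both were called whichever library was left out and after the correction. Plin1, the droplet coat of mature fat cells, differed by -0.55 (limma, adjusted p = 0.047), and Adipoq, the adipokine that marks fat cells, was not called (-0.02, limma, adjusted p = 0.956). Dio2, the thyroid hormone activating deiodinase, was the single call of 4 brown adipocyte genes (0.55, limma, adjusted p = 0.0348).

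Of 12 genes of fatty acid oxidation 3 were lower, among them Pdk4, the pyruvate dehydrogenase kinase (-0.70, SE 0.16, limma, adjusted p = 0.0171). The median over the list was 0.01, Pdk4 was the 1 call after the correction (-0.81, limma, adjusted p = 0.0268), and no call was left without 8088 or 9489. Of 9 fatty acid synthesis genes 1 was lower, the regulator Srebf1 (-0.73, SE 0.14, limma, adjusted p = 0.0107), whose call stood after the correction (-0.40, limma, adjusted p = 0.037) but not without 9489. Since 8.27% of all tested genes were lower, 1 of 9 gives no result for the list. In cholesterol synthesis Hmgcs1 (0.33), Cyp51 (0.51) and Msmo1 (0.43) were higher and Lss lower (-0.48), with limma adjusted p = 0.0178, 0.0235, 0.0339 and 0.0148. None of these 4 was called after the correction or without 8089 or 9489, and the list had 7 calls without 9490 and 8 without 8134.

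In glycolysis Pgk1, phosphoglycerate kinase, ran from 37.4 to 45.4 in the first set and from 48.8 to 63.0 in the second (0.50, SE 0.09, limma, adjusted p = 0.00772). The enzymes Eno1 (-0.49, limma, adjusted p = 0.0168) and Aldoa (-0.39, limma, adjusted p = 0.0214) and the hypoxia-induced Ndrg1 (-0.60, SE 0.10, limma, adjusted p = 0.00461) were lower. None of the 4 overlapped between the sets. Pgk1 and Ndrg1 were called in all 12 fits with 1 library left out and after the correction. The median over the 15 tested members was -0.06.

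Of 77 tested cytosolic ribosomal protein genes 38 were higher and 0 lower, with a median of 0.35. Rpl27 ran from 56.2 to 70.6 against 67.9 to 96.1 (0.46, SE 0.08, limma, adjusted p = 0.00872), Rpl10 from 372 to 479.9 against 482 to 616 (0.48, SE 0.09, limma, adjusted p = 0.0118) and Rplp2 from 149 to 170.1 against 188 to 208 (0.33, SE 0.06, limma, adjusted p = 0.0118). Rpl36a differed by 0.45 (SE 0.09, limma, adjusted p = 0.013). Mouse 8134 had the highest list score of the first set, 8.06, within the 7.99 to 8.14 of the second, while the other 5 lay between 7.55 and 7.77. After the correction 5 of the 77 were called and the median was 0.24, and 1 was called without 9489, 2 without 8088, 8 without 8089, 15 without 9486, 19 without 9487, 20 without 8152, 25 without 8136 and 68 without 8134. Many ribosomal protein genes have near-identical pseudogenes, and how the authors' counting shared such reads is not given in the sources used here.

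Nuclear genes of the respiratory chain showed 14 higher and 1 lower of 54, with a median of 0.29. Cox6a1 (0.45, SE 0.09, limma, adjusted p = 0.0139) and Cox6c (0.49, limma, adjusted p = 0.0206) of complex IV and Ndufa6 of complex I (0.35, limma, adjusted p = 0.0193) were higher, and Uqcrc1 of complex III was lower (-0.32, limma, adjusted p = 0.0196). After the correction 2 were called and the median was 0.08. Calls numbered 0 without 8088 or 9489, 3 without 8089, 8 without 9486, 9 without 9487 or 8152, 25 without 9490 and 40 without 8134.

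Transcripts made in the mitochondria took 10.2% to 12.97% of reads in the first set (11.4% ± 1.04, SD, n = 6) and 12.6% to 19.7% in the second (16.3% ± 2.40, SD, n = 6). With genotype as a term the difference was 5.501 percentage points, with an exact two-sided permutation p = 0.00444 within genotype, the smallest that the 225 arrangements can give, and 0.0222 adjusted over 5 library measures. Mice 8134 and 9491 were the only ones whose shares crossed the other set. Of 7 tested mitochondrially encoded genes 2 were called higher, the complex I subunits mt-Nd5 (0.70, SE 0.19, limma, adjusted p = 0.0279) and mt-Nd4 (0.50, limma, adjusted p = 0.0456). The abundant mt-Co1, a core subunit of complex IV, was 4098 at lowest, 6765 at the median and 8538 at highest in the first set and 7114, 10257 and 11037 in the second (0.54, limma, adjusted p = 0.152). These transcripts are poor in GC, with a list median of 37.1%, and after the correction their median difference was 0.10 with 0 calls. As deposited, the list had 0 calls without 8088, 9486, 8152 or 9489, 1 without 9485, 8136 or 9490 and 4 without 9491. The other 4 measures, total reads, genes with reads, the Gm42418 share and the share on the 10 highest genes, had exact permutation p-values of 0.191 to 0.698 before adjustment.

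**Figure D5:**
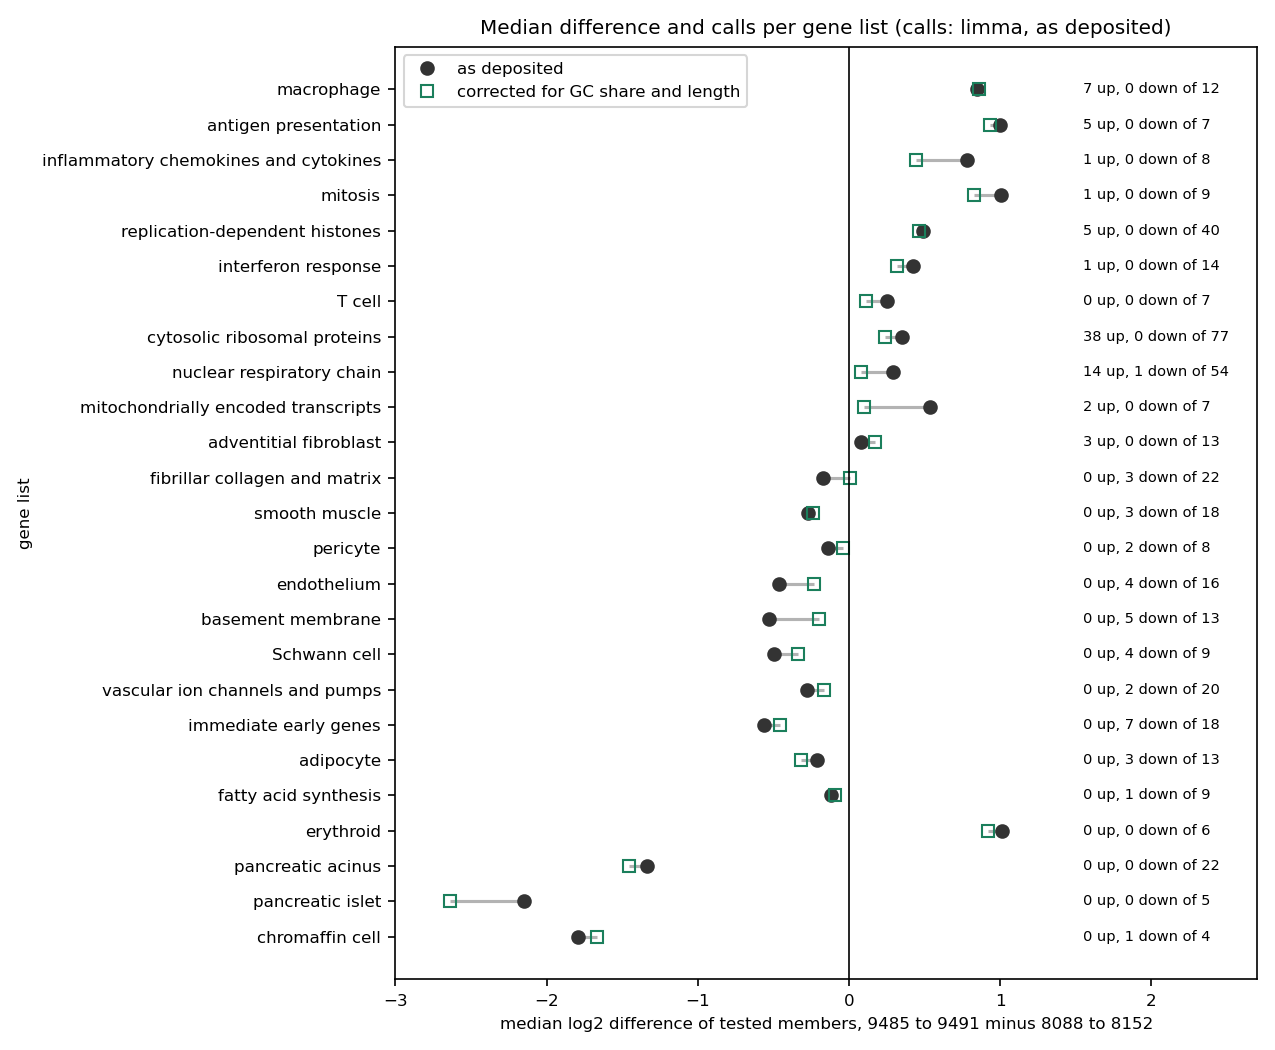
Median log2 difference of the tested members of 25 gene lists (second minus first set), as deposited (filled circles) and after correction for GC share and length (open squares), with counts of calls at right. The macrophage and antigen presentation medians go from 0.85 and 1.00 to 0.86 and 0.94, and the mitochondrially encoded median goes from 0.54 to 0.10.

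Genes of neighbouring organs varied widely between single mice. The 22 pancreatic acinar genes all had a negative difference, with a median of -1.34, and none was called. The median was -2.74 in ieCre alone and 0.11 in ieET-1 alone, -0.76 without 9491, -2.37 without 9490 and -0.33 without the Gm42418-rich libraries. Pnlip, pancreatic lipase, lay between 5107 and 11336 in 5 mice of the first set and at 247 in 8152. In the second set it was 11638 in 9490, 72.8 in 9491 and 891 to 2195 in the other 4 (-1.48, SE 1.17, limma, adjusted p = 0.38). Its difference was -2.84 in ieCre alone and -0.13 in ieET-1 alone, -0.89 without 9491 and -2.52 without 9490. Cel (-1.63) and Cela2a (-1.55) of the same list followed, with limma adjusted p = 0.33 and 0.343.

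The insulin genes marked other mice. Ins2 was 744 in mouse 8088, 98.1 in 8089, 94.9 in 9487 and 39.2 in 9490, and at most 8.39 in the other 8, with Ins1 in the same order in these 4 mice. Chga, a granule protein of endocrine cells, and Th, the first enzyme of catecholamine synthesis, were highest in 8088 (159 and 65.3). Of 7 adrenal cortex genes 1 was higher, Star, which brings cholesterol into mitochondria for steroid synthesis, at 6.64 to 23.5 against 18.5 to 45.7 (1.22, SE 0.31, limma, adjusted p = 0.0253). Its call was lost without 8089, 9489 or 9490. None of 8 mesothelial, 5 plasma cell, 36 small nucleolar RNA, 10 DNA replication or 7 abundant noncoding RNA genes was called, with medians of 0.21, -0.31, 0.19, 0.18 and 0.19. The TGF-beta target list had Ccn1 as the 1 call of 11, and the splicing regulators had Ptbp1 as the 1 call of 19 (-0.48, limma, adjusted p = 0.0324). The red cell gene Hbb-bs, a beta globin, was not called (1.15, limma, adjusted p = 0.0808), and its low values lay in 8088, 8089 and 8135. With the pancreatic acinar score as a further term 1307 genes were called between the sets.

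Whether the difference between the sets depended on genotype was tested with an interaction term. Of 14063 genes 0 passed (0.00%), with 767 at an unadjusted p under 0.05 where 703 are expected by chance, and edgeR also gave 0 and DESeq2 15. The 10 genes with the smallest p, none of which passed, included the carboxylases Pcx and Acaca, the acetyl-CoA synthetase Acss2 and the mitochondrial carrier Slc25a10. Acaca averaged 158 and 251 in the ieCre mice of the first and second set and 258 and 165 in the ieET-1 mice (interaction -1.35, limma, adjusted p = 0.811). Acss2 averaged 42.6 and 85.9 in ieCre and 80.9 and 52.4 in ieET-1 (-1.69, limma, adjusted p = 0.811). The others were Rnaset2a, Nrtn, Rgcc, Scand1, H2-Q10 and Mvk, a kinase of cholesterol synthesis. Each genotype of a set holds 2 or 4 mice, which limits the precision of this test. Within the ieCre mice alone 2695 genes were called between the sets, and within the ieET-1 mice alone 0 were called, with 1584 at an unadjusted p under 0.05.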

How the data were processed

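The authors deposited a normalized signal per gene and library, with replicates not pooled. Tools named, without roles, in the submitters' processing notes are STAR 2.3.1, edgeR 3.6.8, R 3.2.3, FastQC and bcl2fastq 1.8.4; no source used here gives the genome build, annotation or counter. Each deposited signal is a whole number of reads over an effective library size: within 0.001, 100% of 482036 positive values were whole multiples. Totals were 9635250 to 16181605 reads. A row named ID (at most 0.0974% of reads) was left out. GENCODE M21 gave symbols to 28424 of 29020 identifiers (97.9%).

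Limma 3.58.1 (R 4.3.3) was fitted to log2(value + 1) with genotype and set as terms, for 14063 genes that reached a value of 1 in 6 or more of 12 libraries, with Benjamini-Hochberg adjustment over all of them and a threshold of 0.05; fold changes on this scale understate low genes. Recovered reads were tested with edgeR 4.0.16 and DESeq2 1.42.0. Library measures were compared by exact permutation within genotype. The GC and length correction subtracted splines from each library's log2 deviations. Named genes are the 12 largest changes in each direction among called, annotated genes (40 called predicted genes or pseudogenes were only counted) and the called list members with the smallest p. Members and lists were chosen with earlier results of these data known. Some genes are not reported here.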

Additional observations from a re-analysis of the deposited data

Results flagged for a closer look

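In each set of 6 mice, a value was singled out when the gap between the highest or lowest mouse and its nearest neighbour exceeded Dixon's critical share of the whole range. Gaps were taken on log2(value + 1) for genes and lists. Of 352 gene, list and library values tested in this way 38 were singled out. Chance singles out about 1 in 20 groups (5%) when they are unselected and independent. Most of these genes were named for results in the same data and the lists share genes with them, so 38 cannot be set against that rate.

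Mouse 8134 stood apart most often. It was the lowest of the first set for Atp2a3 (177), Asb2 (35.0), Nos3 (94.1), Pdgfrb (94.0), Cspg4 (132), Sox10 (6.52), Ece1 (97.6) and Npr2 (27.0). The same mouse was the lowest for the mean log2(value + 1) of the pericyte (6.69), fibrillar collagen and matrix (7.68), basement membrane (7.53) and TGF-beta target lists (6.05). It was the highest for Eno1 (236), Ndufa6 (68.8) and the nuclear respiratory chain list (6.01).

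Mouse 8088 was the highest of the first set for Chgb (75.6), Slc24a2 (12.0), Ccl7 (5.64), Th (65.3) and the chromaffin cell list (5.66). Mouse 8089 was the lowest for Kif11 (1.49). Mouse 8152 was the lowest for the pancreatic genes Pnlip (247), Cel (232) and Cela2a (185) and for the pancreatic acinus list (5.73). Mouse 8136 was the lowest for Cox6c (48.3) and Hist1h2bg (2.22). Mouse 8135 was the highest for the abundant noncoding RNA list (9.55).

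In the second set, mouse 9487 was the lowest for Ppp1r12b (226) and the smooth muscle list (8.71) and the highest for Hspd1 (118) and the interferon response list (5.27). Mouse 9490 was the lowest for Col15a1 (95.7) and the fatty acid synthesis list (6.81). Mouse 9485 was the lowest for Rpl27 (67.9). Mouse 9491 was the lowest for mt-Co1 (7114) and the highest for the share of reads on Gm42418 (11.5%). Mouse 9489 was the highest for the number of genes with reads (24399).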

How the results depend on the processing

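The count of 2187 genes became 0 in the ieET-1 mice alone, 3481 with DESeq2, 968 with no filter, 1095 with Gm42418 and mitochondrial genes left out, 5912 with library weights, 1307 with the pancreatic acinus score as a term, 444 after the GC and length correction, 453 without the 3 libraries over 10% Gm42418 and 10 without these and mouse 9489. Leaving out 1 library gave 190 (without 9489) to 4794 (without 8134), and the cause was not tested. With edgeR it was 2362. The interaction count of 0 was 15 with DESeq2 and 0 to 2 with 1 library left out. The mitochondrial difference of 5.501 points ran from 4.64 to 6.22 over the fits that lost its call, without 8088, 8089, 9489 or 9490. Each of these mice belongs to a genotype with 2 mice in its set. Without it fewer arrangements remain, and beside the other measures even the smallest possible p could not pass 0.05 after adjustment. These lost calls therefore cannot show whether the difference depends on these mice. Directions turned for Chga (0.059), Ins2 (0.72), Ins1 (0.485) and Khdrbs3 (0.09) in the ieET-1 mice alone. The difference of Khdrbs3 ran from -0.055 to 0.055 with 1 library left out. It turned with Gm42418 and mitochondrial genes left out (0.03) and without 8089 or 9487 (0.055 and 0.013). Gm42418, not called (-0.99, limma, adjusted p = 0.742), turned in the ieCre mice alone (2.25), with library weights (0.303), with its own share as a term (0.279), without the libraries richest in it (0.334) and without these and 9489 (0.435). Of 106 called genes named, 11 were called in every fit with 1 library left out and 95 lost the call without at least 1 of 8088, 8089 and 9489. No paired analysis was possible because each animal number occurs once. Genes near the floor of 3 reads (0.177 to 0.461) are limited by depth, and this covers counting error only.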
